A study of Mus musculus with 4 samples.

Results

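Chromatin accessibility at 46 off-lineage developmental transcription factors was examined in mouse bone mesenchymal stem cells (MSCs) of 2 age groups. Most of these regulators direct the formation of neural, muscle, cardiac, endodermal, renal or blood tissue, and a pair of them, Pax1 and Pax9, act in the embryonic vertebral column. Every peak that overlapped one of the 46 genes or the 5 kb upstream of its start was assigned to it, which gave 117 of the 117282 peaks in the data set. ATAC-seq, in which a transposase cuts and tags open DNA, was performed on 2 samples of old MSCs (donor age 18 to 22 months) and 2 of young MSCs (donor age 3 to 5 months). All 4 samples were kept at 2% O2. For young MSCs, the study's methods describe wild-type male C57BL/6N mice and a sort of cultured bone cells for Sca-1 and CD140a and against CD45 and TER-119. Strain and sex of the old mice were not given in the sources used here. The sample labels do not say whether the samples of a group came from separate animals, so p-values measure the spread between these samples.

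Paired-box, homeobox, Sox, GATA, forkhead and bHLH factors of this kind switch on the programmes of their own lineages, and several of them can redirect the fate of other cells when supplied from outside. In cells of other lineages their genes are commonly kept silent by Polycomb complexes, which bind the long CpG-rich stretches around the starts of developmental genes. A further repressor, REST, silences neuronal genes outside the nervous system and in neural progenitors through a DNA element called RE1.

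The values deposited for each peak were read counts per library total, which were not divided by peak length. Library totals were inferred from the step between the values of a sample and an assumed scale factor. They corresponded to 28600303 and 32559794 counts in old replicates 1 and 2, and to 28259470 and 29413803 counts in young replicates 1 and 2. With 1 step taken as 1 count, 3 counts were worth 1.05, 0.921, 1.06 and 1.02 in these samples, in the same order. Levels of different peaks are given here as density, the deposited value per kb of peak. Marker genes followed the labelled cell type. All 10 MSC markers examined, among them Pdgfra, Ly6a (which encodes Sca-1) and Prrx1, had a peak within 1 kb of a protein-coding start, termed a start-site peak. Among blood markers, Ptprc (which encodes CD45), Cd3e, Itgam and Adgre1 had none, whereas Klf1 had one. Of 2 endothelial markers, Pecam1 had a start-site peak and Cdh5 had none.

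Most of the off-lineage regulators were marked by a peak. At least 1 peak lay at 42 of the 46 members, and 38 members (82.6%) had a start-site peak, compared with 15333 of 21938 protein-coding genes (69.9%). Among the neural progenitor factors, Lhx2 had 6 peaks, Otx1, Pax6, Six3, Nkx2-2 and Nkx6-1 had 3 each, and Nkx6-2, Olig1, Olig2, Sox2 and Sox3 had 1 each. No peak was listed at Sox1 or Otx2, which act in early neural and forebrain tissue. Among the factors of differentiating neurons, Lhx9 had 5 peaks, Barhl2, Lhx1, Lhx3, Lhx5, Lhx8, Neurog2 and Pou4f1 had 2 each, and Atoh1, Neurog1, Neurod1 and Neurod2 had 1 each. In the neural crest and skeletal muscle group, Pax3 had 7 peaks, Pax7 had 4, Sox10 had 3, Myod1 had 2 and Myf5 had 1. In the heart and pharynx group, Gata4 and Tbx5 had 5 peaks each, Tbx1 had 4 and Isl1 had 2, whereas Nkx2-5, an early cardiac regulator, had none. Of the endodermal and early embryonic factors, Eomes, Foxa2, Gata6 and Nkx2-1 had 2 peaks each and Foxa1 had 1, whereas Sox17 had none. Pax8, which acts in thyroid and kidney, had 13 peaks, the B cell factor Pax5 had 8 and the kidney factor Pax2 had 2. Pax1 had 2 peaks and Pax9 had 1; both act in the sclerotome, the embryonic source of the vertebral column, and in the pharyngeal pouches. Neurod1, Neurod2, Pax7 and Sox10 had peaks but none within 1 kb of a start. An unlisted gene had no called peak on the common list, and its signal was not measured.

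The member peaks were spread over starts and gene bodies. Of the 117 peaks, 46 were start-site peaks, 34 lay in introns, 18 overlapped a coding exon, 3 a UTR exon and 3 an exon of a noncoding transcript, and 13 lay upstream of the gene. No member peak reached the start of another protein-coding gene, and none was shared by 2 members. However, 35 of them overlapped another annotated gene, in most cases a noncoding RNA such as Sox2ot at Sox2, Six3os1 at Six3, Lhx1os at Lhx1 or Pax6os1 at Pax6, so their accessibility belongs to both genes.

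Start-site peaks of the off-lineage factors were present but weak. Their median density was 9.91 per kb, compared with 31.8 per kb over all protein-coding genes with such a peak, and 32 of the 38 lay below the lower quartile of all genes. None of the 38 lay above the median of all genes, and neither did any of the 10 MSC markers, whose median density was 19.7 per kb in far wider peaks. This gap was present in every sample. The members' median density was 9.61 and 8.80 per kb in old replicates 1 and 2 and 12.2 and 11.4 per kb in young replicates 1 and 2, against 23.8, 33.2, 34.2 and 35.4 per kb over all genes. In each of the 4 samples, the members stood well below the genes at large, at between 26.5% and 40.4% of their median. The members' peaks were not narrower, since the median width was 2700 bp for the members and for all genes. In a culture of many cells, a site open in few cells and a site weakly open in all of them cannot be told apart.

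**Figure D1:**
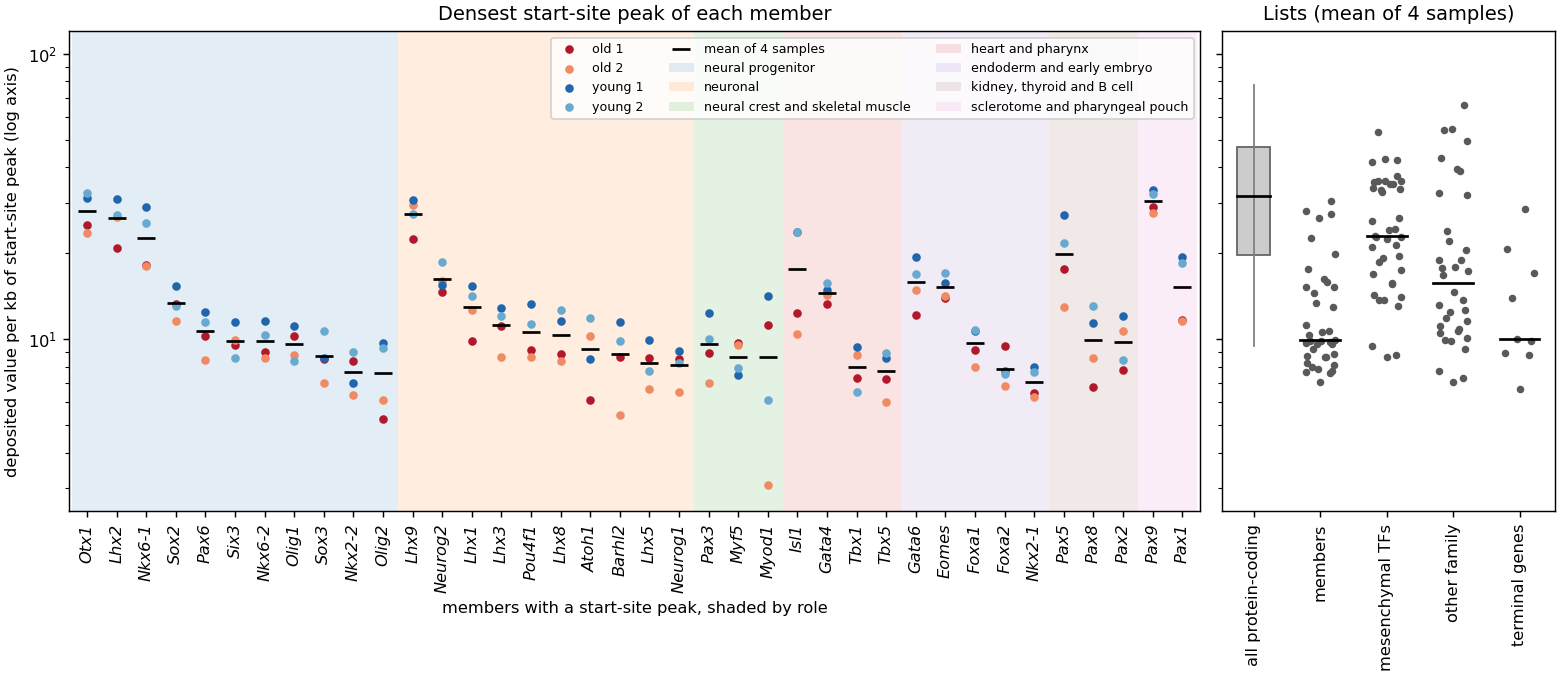
Density (deposited value per kb, log axis) of the densest start-site peak of each of 38 members in 4 samples, shaded by role (left), and the mean over samples for all protein-coding genes (box, quartiles; line, 5th to 95th percentile) and for single genes of 4 lists with their medians (right). Pax9, at 30.6 per kb, is the member nearest to the median of all genes (31.8 per kb), and 20 of the 38 members lie under 10 per kb.

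Among the neural progenitor factors, 11 of 13 had a start-site peak, and their median density was 9.87 per kb. The forebrain and sensory organ factor Otx1 was the densest of them. Its peak (chromosome 11, 22000401 to 22004200, mm10 throughout) had 25.2 and 23.6 per kb in old replicates 1 and 2 and 31.3 and 32.6 per kb in young replicates 1 and 2. Both old samples lay below both young samples on this scale, but the groups overlapped after RLE scaling (log2 fold change -0.10, limma, Benjamini-Hochberg adjusted p = 0.833). Lhx2, a LIM-homeodomain factor of forebrain, eye and limb bud, had its densest start-site peak at an internal start (chromosome 2, 38350001 to 38352700). It held 20.8 and 26.7 per kb in old replicates 1 and 2, and 31.1 and 27.3 per kb in young replicates 1 and 2. The lowest value was that of old replicate 1, while old replicate 2 was close to young replicate 2. Nkx6-1, a factor of ventral spinal cord and pancreatic beta cells, had 18.2 and 18.0 per kb in old replicates 1 and 2 and 29.1 and 25.6 per kb in young replicates 1 and 2 (chromosome 5, 101662801 to 101665900). Both old samples were the lower ones as deposited, but the groups overlapped after RLE scaling, with a log2 fold change of -0.30 that did not pass the threshold (limma, Benjamini-Hochberg adjusted p = 0.481).

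In the same group, the weakest start-site peaks were at Olig2 and Nkx2-2. Olig2, which specifies oligodendrocytes and motor neurons, had 5.24 and 6.14 per kb in old replicates 1 and 2, and 9.73 and 9.35 per kb in young replicates 1 and 2 (chromosome 16, 91224701 to 91225900). The groups did not overlap on this scale, but the log2 fold change of -0.41 was not past the threshold (limma, Benjamini-Hochberg adjusted p = 0.549). Nkx2-2, which acts in ventral neural tube and pancreas, had 8.39 and 6.35 per kb in the old samples and 6.999 and 8.99 per kb in the young samples (chromosome 2, 147183801 to 147188300), and the groups overlapped. A further Nkx2-2 peak, over a coding exon (chromosome 2, 147177401 to 147179300), had a mean density of 34.6 per kb and was singled out after its values were seen.

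The factors of differentiating neurons resembled the progenitor factors, with a start-site peak at 10 of 12 and a median density of 10.5 per kb. Lhx9, a LIM-homeodomain factor of brain, limb and gonad, had 22.5 and 29.6 per kb in old replicates 1 and 2, and 30.7 and 27.4 per kb in young replicates 1 and 2 (chromosome 1, 138847701 to 138849600). Old replicate 1 was again the lowest sample and the groups overlapped. Neurog2, a proneural bHLH factor, had 14.7 and 16.0 per kb in the old and 15.4 and 18.7 per kb in the young samples (chromosome 3, 127631001 to 127635100). Its values were mixed between the groups. Neurog1, Atoh1, Barhl2 and Lhx5 were all under 10 per kb on average.

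In the neural crest and muscle group, Pax3, Myf5 and Myod1 had start-site peaks of between 8.63 and 9.58 per kb. Myod1, the master regulator of skeletal muscle, was singled out after its values were seen, as an example of a narrow peak. Its peak of 500 bp (chromosome 7, 46375901 to 46376400) had 11.2 and 3.07 per kb in the old samples and 14.2 and 6.12 per kb in the young samples. Replicates of 1 group differed more than the groups did.

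In the heart and pharynx group, 4 of 5 members had a start-site peak. Isl1, which marks cardiac progenitors and motor neurons and also acts in hindlimb initiation, was the densest of them. Its peak (chromosome 13, 116308301 to 116314200), which covers the start, had 12.4 and 10.4 per kb in the old samples and 23.8 per kb in each of the young samples. The groups were clearly separated on this scale, and the comparison of age groups is given with the other peaks. Tbx5, a T-box factor of heart and forelimb, was among the weakest members, with 7.23 and 6.04 per kb in the old and 8.61 and 8.95 per kb in the young samples (chromosome 5, 119834601 to 119837600). As deposited the old samples were the lower ones, whereas after RLE scaling the groups overlapped, with a log2 fold change of -0.11 (limma, Benjamini-Hochberg adjusted p = 0.867).

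The endodermal and early embryonic factors had a median of 9.66 per kb at 5 of 6 members. Nkx2-1, which acts in lung, thyroid and forebrain, was the least dense of all members when each gene was represented by its densest start-site peak. That peak held 6.49 and 6.25 per kb in the old samples and 7.96 and 7.65 per kb in the young samples (chromosome 12, 56533001 to 56535800), with a log2 fold change of -0.00 after RLE scaling (limma, Benjamini-Hochberg adjusted p = 0.997). Gata6 and Eomes were higher, with means of 15.8 ± 3.07 and 15.2 ± 1.43 per kb (SD, n = 4). Of the remaining members, the B cell factor Pax5 had 17.7 and 12.97 per kb in the old and 27.1 and 21.7 per kb in the young samples at an internal start (chromosome 4, 44703201 to 44705000). As deposited both old samples lay below both young samples, but after RLE scaling the groups overlapped (log2 fold change -0.38, limma, Benjamini-Hochberg adjusted p = 0.494). Pax9 had the densest start-site peak of all members and the widest as well, with 11400 bp (chromosome 12, 56689501 to 56700900). It held 29.1 and 27.7 per kb in the old and 33.4 and 32.2 per kb in the young samples. The 4 samples lay close together, and the log2 fold change was 0.08 (limma, Benjamini-Hochberg adjusted p = 0.821).

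Compared with regulators that belong to the mesenchymal lineage, the off-lineage factors had fewer and weaker start-site peaks. All 40 mesenchymal transcription factors on a comparison list had a start-site peak, with a median density of 22.9 per kb and a median width of 7150 bp. The 2 densest were Twist1, with 53.3 ± 7.92 per kb (SD, n = 4), and Snai2, with 42.9 ± 5.70 per kb. Because wide peaks spread their signal over more bases, start-site peaks between 1 and 4 kb wide were also compared alone. Here the 24 members had a median of 9.91 per kb, 10 mesenchymal factors had 33.3 per kb, and all 10518 genes had 35.0 per kb. Other genes of the members' own families (53 genes, such as further Pax, Sox and Tbx genes) had a start-site peak in 36 cases and a median of 15.7 per kb, led by Tbx3 (65.9 ± 10.6 per kb) and Six5 (54.6 ± 9.84 per kb). Terminal genes of other lineages had a start-site peak in 9 of 17 cases, with a median of 10.0 per kb. The densest of these was at Map2 (28.7 ± 3.33 per kb) and the next at Snap25 (20.7 ± 3.73 per kb), both neuronal genes. These lists are described by their counts and medians, and no test between them was run.

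Away from the starts, the 71 remaining member peaks had a median density of 9.59 per kb, compared with 12.7 per kb for all peaks away from protein-coding starts. Of all 117 member peaks, 65 (55.6%) lay at or below the lower quartile of density over all peaks, and 27 lay above the median of 13.4 per kb. A clear exception, singled out after its values were seen, was Pax8. A peak upstream of the start (chromosome 2, 24477701 to 24480900) had 45.3 and 46.8 per kb in the old and 51.0 and 53.8 per kb in the young samples. It was the densest of the 117 peaks at 49.2 per kb on average, and far denser than the start-site peak of Pax8 itself, at 9.95 per kb. An intronic peak of Pax8 (chromosome 2, 24451901 to 24457400) also held 33.6 and 28.5 per kb in the old and 36.8 and 44.3 per kb in the young samples. Both lay within the overlapping noncoding gene Gm13415, so that they cannot be assigned to Pax8 alone.

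The start-site peaks of the members were richer in CpG dinucleotides than those of all genes, as were those of other genes of their families. The median ratio of observed to expected CpG was 0.67 for members, 0.60 for the other family genes and 0.52 for all genes, and the GC content was 58.1%, 57.4% and 52.1%. The sequence GGGCGG, the core of the GC box, was present on either strand in 94.7% of the members' start-site peaks. The share was 92.5% for the mesenchymal factors, 86.8% for all genes and 83.3% for the other family genes. TATAAA was present in 50% of the members' peaks and 64.9% of all. The AP-1 sequences TGACTCA and TGAGTCA, which are bound by Fos and Jun factors, were found in 15.8% of the members' start-site peaks. The share was 39.9% for all genes, 44.4% for the other family genes and 62.5% for the mesenchymal factors' wider peaks. For terminal genes of other lineages, with 9 such peaks, it was 22.2%. These shares depend on peak width and no test was run. A match to a core of the RE1 element (CAGCACC and GGACAG separated by 2 bases) was found in 1 of the 117 member peaks, at Lhx3, and in 0.124% of all peaks. The Lhx3 peak is a start-site peak. Among start-site peaks, the share was 2.63% for members, 0.404% for all genes, 2.78% for other family genes and 0% for mesenchymal factors. Of the 9 start-site peaks of terminal genes, 22.2% held a match. The Lhx3 match is shown with 5 flanking bases on each side and the match in capitals, because it is the only such match among the member peaks (minus strand, chr2:26208271-26208295, GRCm38).
Lhx3 RE1 match: tccttCAGCACCGCGGACAGcgcca

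CpG content and accessibility did not go together at the promoters of Pou4f1 and Pax9. These members were picked as extremes of CpG content and of density, and the relation over all members was not tested. RefSeq promoter sequences (GRCm38.p6) were matched for 35 of the 46 members, in 46 windows of 250 bases before and 50 bases after a start. The windows held a median of 17 CpG dinucleotides, compared with 7 over all 32851 windows and 16 in 32 windows of the mesenchymal factors, and 58.7% contained GGGCGG, compared with 35.7% and 46.9%. As examples, the 250 bases before a start are printed for Pax9, the densest member, for Pou4f1, a sensory neuron factor whose windows are the richest in CpG, and for Otx2, which had no peak. CpG dinucleotides are in capitals. Pou4f1 (chr14:104468000-104468249, minus strand) held 47 CpG dinucleotides and had a start-site density of 10.6 per kb, whereas Pax9 (chr12:56695221-56695470, plus strand) held 7 and had 30.6 per kb. Otx2 (chr14:48667645-48667894, minus strand) held 6 before the start shown, the poorest in CpG of its 4 windows, of which the richest held 16.
Pax9: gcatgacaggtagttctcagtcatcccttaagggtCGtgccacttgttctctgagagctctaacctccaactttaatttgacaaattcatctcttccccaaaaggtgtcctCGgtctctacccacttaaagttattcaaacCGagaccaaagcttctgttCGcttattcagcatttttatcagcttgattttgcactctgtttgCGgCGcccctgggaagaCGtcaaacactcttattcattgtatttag
Pou4f1: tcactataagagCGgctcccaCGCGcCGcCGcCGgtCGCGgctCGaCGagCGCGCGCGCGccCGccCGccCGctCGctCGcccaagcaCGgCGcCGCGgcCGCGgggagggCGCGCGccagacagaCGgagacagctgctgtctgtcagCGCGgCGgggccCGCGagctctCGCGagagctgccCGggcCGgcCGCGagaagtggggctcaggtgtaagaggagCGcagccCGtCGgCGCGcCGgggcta
Otx2: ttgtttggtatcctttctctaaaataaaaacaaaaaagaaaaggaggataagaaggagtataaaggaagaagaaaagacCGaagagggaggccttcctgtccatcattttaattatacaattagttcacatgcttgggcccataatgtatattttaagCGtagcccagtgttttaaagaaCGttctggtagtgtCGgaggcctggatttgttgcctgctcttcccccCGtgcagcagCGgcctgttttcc

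Next, old and young MSCs were compared at the member peaks, to ask whether off-lineage regulators differed in accessibility with age. Most did not differ beyond the spread between samples. No member peak passed an adjusted p of 0.01 (limma on log2 values after RLE scaling, Benjamini-Hochberg over all 117282 peaks), in a comparison in which 36 peaks (0.0307%) were called lower and 30 (0.0256%) higher in old MSCs over the whole data set. At the looser limit of 0.05, 1 member peak was reached, an intronic peak of Pax8, while 1.12% of all peaks were. At an unadjusted p under 0.05 there were 12 member peaks of 117, 6 lower and 6 higher, compared with 16.4% of all peaks. limma-voom on recovered counts also called 0 member peaks, and it called 95 lower and 49 higher over the whole data set. These counts depended on single samples. Leaving out 1 sample leaves a group of 1. The calls then moved for members in some cases and over the whole data set in every case. After RLE scaling, both old samples lay below both young samples at 16 member peaks (13.7%; 24.2% of all peaks) and above them at 22 (18.8%; 23.2% of all peaks).

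**Figure D2:**
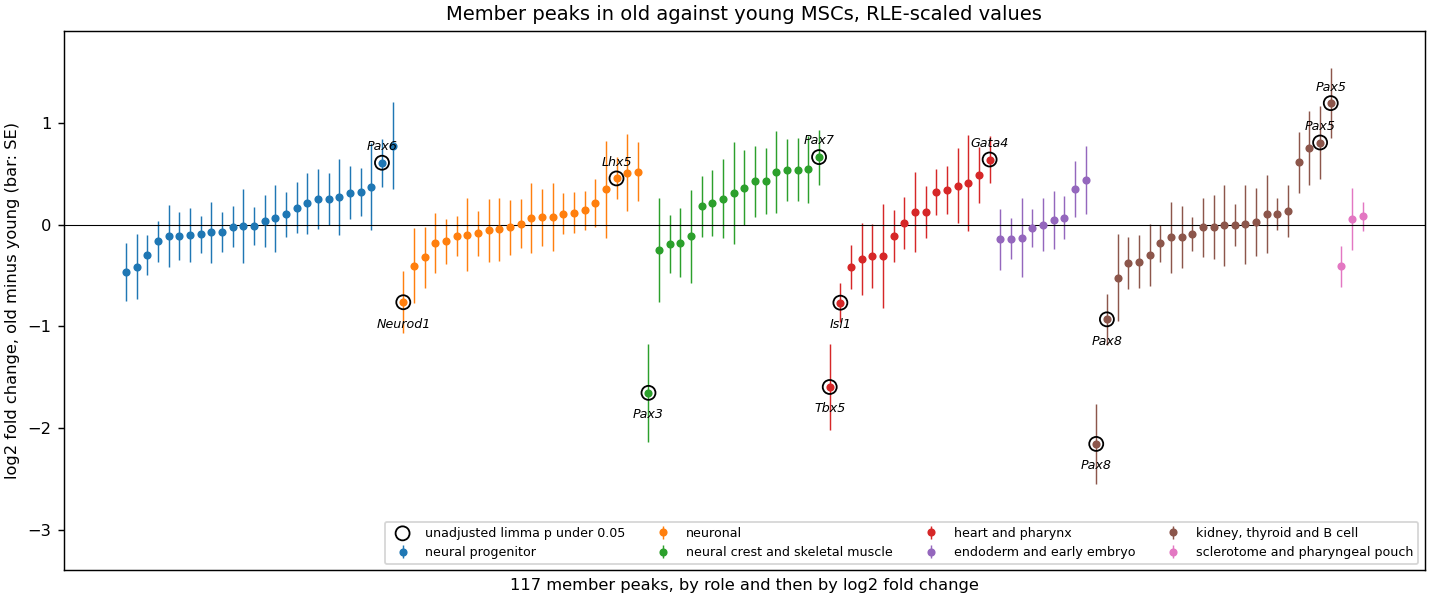
Log2 fold change (old minus young MSCs, RLE-scaled values, bars SE of the limma fit) of the 117 member peaks, ordered by role and then by value, with peaks at an unadjusted p under 0.05 circled. The values lie on both sides of 0 in each role group, from -2.16 at Pax8 to 1.19 at Pax5, with a median of 0.01.

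The members as a whole were balanced around 0. The median log2 fold change of their peaks was 0.01, against 0.00 over all peaks and -0.03 over all start-site peaks, and 47.9% were lower in old MSCs, against 49.9% and 54.7%. By role, the medians were 0.01 for neural progenitor factors (26 peaks), 0.01 for neuronal factors (23 peaks), 0.31 for neural crest and muscle factors (17 peaks), 0.07 for heart and pharynx factors (16 peaks), -0.00 for endodermal factors (9 peaks), -0.02 for the kidney, thyroid and B cell group (23 peaks) and 0.05 for Pax1 and Pax9 (3 peaks). Within the 38 densest start-site peaks per member, only that of Isl1 had an unadjusted p under 0.05, compared with 8.33% over all genes and 12 of the 40 mesenchymal factors. The direction of the members' median rested on single samples. It was -0.11 without old replicate 1 and 0.18 without old replicate 2. Without further scaling of the deposited values, the median was -0.24, in a data set whose overall median then moved to -0.27, and 96.2% of all called peaks were lower in old MSCs instead of 54.5%.

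Isl1 had the largest age difference of any member start-site peak. The deposited values were 73.1 and 61.4 in old replicates 1 and 2, and 140.1 and 140.4 in young replicates 1 and 2. Both old samples had about as little as each other and the young samples were nearly identical, so the groups were well separated. After RLE scaling, the means were 75.5 ± 20.5 for old and 127.0 ± 6.22 for young MSCs (SD, n = 2), a log2 fold change of -0.77 (SE 0.19, limma, Benjamini-Hochberg adjusted p = 0.0579). It remained negative under all 13 alternatives, between -1.05 and -0.48. Leaving out a sample could hardly reverse it, because both old samples lay below both young samples. Its size depended on the old samples, with -1.05 without old replicate 1 and -0.48 without old replicate 2. With all samples kept, it did not pass the threshold. The adjusted p (limma, Benjamini-Hochberg) then ran from 0.0119 with values as deposited to 0.245 with plain moderation.

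Pax8 held the strongest single difference and also a second one. The first was a peak of 300 bp in an intron (chromosome 2, 24442201 to 24442500), 33099 bp downstream of the gene's start. It had 1.05 and 1.54 in the old samples and 11.3 and 10.2 in the young samples, from 3, 5, 32 and 30 counts. The old samples were at or near the value of 3 counts, and both young samples were far above it. After RLE scaling, the means were 1.41 ± 0.17 and 9.76 ± 1.21 (SD, n = 2), a log2 fold change of -2.16 (SE 0.39, limma, Benjamini-Hochberg adjusted p = 0.0175). The adjusted p (limma, Benjamini-Hochberg) ranged from 9.23e-05 to 0.248 over 12 alternatives, 4 of which passed the threshold. The whole peak is shown from the plus strand (chr2:24442201-24442500, GRCm38), with its only CpG in capitals, because it is the member peak with the lowest adjusted p. It held neither AP-1 sequence.
Pax8 intron peak: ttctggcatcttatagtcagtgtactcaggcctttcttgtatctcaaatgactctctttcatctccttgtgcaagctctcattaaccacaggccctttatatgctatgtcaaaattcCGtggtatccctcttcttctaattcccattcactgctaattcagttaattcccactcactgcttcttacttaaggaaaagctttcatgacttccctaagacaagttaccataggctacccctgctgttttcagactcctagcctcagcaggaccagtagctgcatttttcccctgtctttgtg

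The surroundings of the Pax8 intron peak did not share its difference. It abutted a peak on each side without a gap, at 24437201 to 24442200 and 24442501 to 24443400, whose log2 fold changes were -0.00 and 0.00. Summed over these 3 abutting peaks, the RLE-scaled values were 75.3 and 58.9 in the old and 71.7 and 79.5 in the young samples, and the groups overlapped. Of all peaks, 3.86% abutted another one, as did 24 of the 66 called peaks (36.4%) and 5 of the 117 member peaks. For the oxygen comparison, the study's methods describe peak calling in a differential mode, which compares the conditions. For the old and young samples, the sources used here do not say how or on which samples the peak borders were drawn. The part of the borders in such differences was not tested. The second Pax8 peak (24444901 to 24449000) overlapped an exon of a noncoding transcript of the gene. It had 38.5 and 25.8 in the old and 74.3 and 74.8 in the young samples, and again the groups were apart. The RLE-scaled log2 fold change was -0.93 (SE 0.25, limma, Benjamini-Hochberg adjusted p = 0.0678), and it passed the threshold with values as deposited. It depended on the old samples, with -1.37 without old replicate 1 and -0.49 without old replicate 2. Over all 13 Pax8 peaks, the deposited sums were 567.1 and 536.9 in old MSCs and 707.0 and 764.3 in young MSCs. After RLE scaling, however, they were 697.9 and 533.1 against 662.8 and 667.2, so the gene as a whole did not separate the groups.

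**Figure D3:**
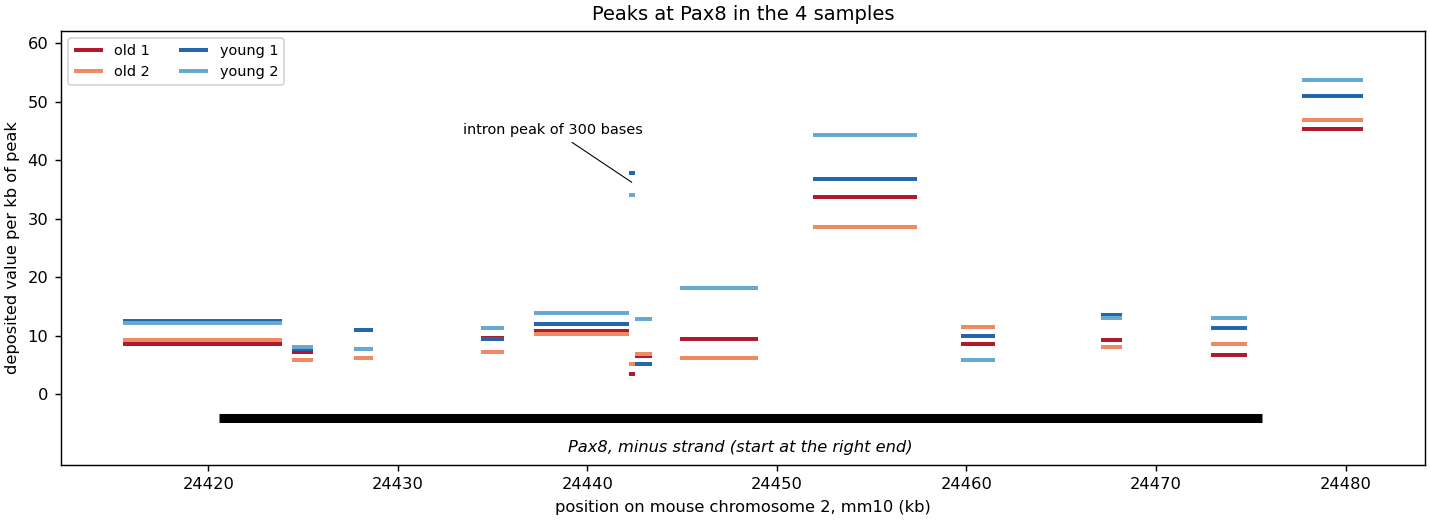
Density (deposited value per kb) of the 13 peaks at Pax8 in each sample, drawn at their extent on chromosome 2 (kb, mm10), with the gene as a black bar. The 300 bp intron peak shows the old samples under 6 per kb and the young samples above 30 per kb, next to 2 abutting peaks whose RLE-scaled means barely differ between the groups.

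The remaining lower peaks were at Pax3, Tbx5 and Neurod1. At Pax3, a factor of neural crest and muscle precursors, an intron peak of 400 bp (chromosome 1, 78129201 to 78129600) had 0.3496 and 2.76 in the old and 5.66 and 8.50 in the young samples, from 1, 9, 16 and 25 counts. Both old samples were lower, and old replicate 1 was below the value of 3 counts. The log2 fold change was -1.65 (SE 0.48, limma, Benjamini-Hochberg adjusted p = 0.0922). It was -0.98 without old replicate 1 and -2.34 without old replicate 2. This peak also abutted another one (78128901 to 78129200), whose log2 fold change was -0.11. At Tbx5, an intron peak of 400 bp (chromosome 5, 119839501 to 119839900) had 1.05 and 1.54 in the old and 7.08 and 6.80 in the young samples, from 3, 5, 20 and 20 counts. Here the replicates of each group lay close together and the groups were apart, with a log2 fold change of -1.60 (SE 0.42, limma, Benjamini-Hochberg adjusted p = 0.0656). At Neurod1, which acts in neurons and endocrine cells, a coding-exon peak (chromosome 2, 79454001 to 79454600) had 5.59 and 9.52 in the old and 15.6 and 16.3 in the young samples. The groups did not overlap (log2 fold change -0.76, SE 0.30, limma, Benjamini-Hochberg adjusted p = 0.217). This peak also lies within the genes Cerkl and Gm26755.

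Among the member peaks higher in old MSCs, the largest log2 fold change was 1.19, compared with -2.16 among the lower peaks. The B cell factor Pax5 had 2 such intron peaks on chromosome 4. The first (44566301 to 44567200) had 8.39 and 10.1 in the old and 3.89 and 4.76 in the young samples, so that both old samples stood above both young ones (log2 fold change 1.19, SE 0.35, limma, Benjamini-Hochberg adjusted p = 0.0898). The second (44629901 to 44631000) had 7.34 and 11.4 in the old and 7.79 and 4.42 in the young samples. As deposited, old replicate 1 was below young replicate 1, and the groups separated only after RLE scaling (log2 fold change 0.81, SE 0.36, limma, Benjamini-Hochberg adjusted p = 0.270). A coding-exon peak of Lhx2 (chromosome 2, 38359601 to 38360100) had 6.64 and 3.69 in the old and 3.18 and 3.06 in the young samples. Old replicate 1 accounted for most of this gap (log2 fold change 0.77, SE 0.43, limma, Benjamini-Hochberg adjusted p = 0.382).

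The kidney factor Pax2, the muscle stem cell factor Pax7 and the heart and endoderm factor Gata4 completed this set. The Pax2 peak upstream of its start (chromosome 19, 44750301 to 44751200), had 5.59 and 11.98 in the old and 6.37 and 4.76 in the young samples. Old replicate 2 was far above the other 3 samples (log2 fold change 0.75, SE 0.37, limma, Benjamini-Hochberg adjusted p = 0.318). The Pax7 intron peak (chromosome 4, 139796801 to 139798000) had 21.0 and 27.9 in the old and 13.8 and 24.1 in the young samples. The deposited values overlapped, and only the RLE-scaled means differed in all pairs, with 26.8 ± 1.37 against 17.0 ± 5.75 (SD, n = 2; log2 fold change 0.66, SE 0.27, limma, Benjamini-Hochberg adjusted p = 0.231). The Gata4 peak at its start (chromosome 14, 63271101 to 63273400) had 32.9 and 39.9 in the old and 30.8 and 25.5 in the young samples. Both old samples were above both young samples, with a log2 fold change of 0.64 (SE 0.23, limma, Benjamini-Hochberg adjusted p = 0.171). The Lhx2 and Pax2 peaks were not among the 12 member peaks at an unadjusted p under 0.05, which also included a peak of Pax6 and one of Lhx5, both higher in old MSCs.

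Finally, the signal at all member peaks was summed per sample. The summed deposited value was 3090 and 3121 in old replicates 1 and 2, and 3876 and 3769 in young replicates 1 and 2. The young samples were the higher ones without overlap (exact permutation, two-sided, on the log2 sums, p = 0.333, which is the smallest p possible with 4 samples). As a share of all peak values, the sums were 0.0705% and 0.0621% in the old and 0.0674% and 0.0599% in the young samples. These shares overlapped between the groups (exact permutation, two-sided, p = 0.667). Without the mitochondrial peaks, which held 15.7% and 6.52% of the signal in the old and 13.5% and 14.5% in the young samples, the shares were 0.0836% and 0.0664% against 0.0779% and 0.0701%. The shares overlapped here as well, and with 2 samples per group the permutation test could not have separated the age groups.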

How the data were processed

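ATAC-seq of 2 old and 2 young MSC samples was used. Each score was made before deposit by the authors, who divided counts by the library total, scaled the result and labelled it RPKM. This was read from the deposited numbers, which carry decimal commas and are not divided by peak length. Within each sample, every number was an integer multiple of 1 step. The submitters' processing notes name mm10, Bowtie2 and Picard, and the study's methods add chromstaR for peaks; those methods describe cells at different oxygen levels, and the handling of old samples is not given in the sources used here. Genes came from GENCODE vM21 (GRCm38). The members and lists were chosen with earlier results of these data known.

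Values were divided by RLE factors (0.813, 1.01, 1.07 and 1.15 for old 1, old 2, young 1 and young 2) and tested as log2(value + 1) with limma 3.58.1 in R 4.3.3 (lmFit, eBayes with trend and robust moderation). Benjamini-Hochberg adjustment covered all 117282 peaks, with a threshold of 0.01. Fold changes of weak peaks are understated on this scale. On counts simulated at the observed means with an assumed spread, and with changes placed at stronger peaks only, limma found 19% of 100 changes of log2 size 1 and 89% of 100 of log2 size 2, with 1 false call. Python 3.11.15, numpy 2.4.6, pandas 2.3.3, scipy 1.17.1 and matplotlib 3.10.9 were used for summaries. The densest start-site peak represented a gene.

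Values per sample are given for the members with the 8 densest and 4 least dense start-site peaks, for any member peak past the threshold, and in each direction for the 6 strongest log2 fold changes of peaks with the same direction in all 4 pairs of samples and at least 10 counts in 2 or more samples. Alternatives covered the scaling, the pseudocount (0.1 and 5), removal of weak peaks, plain moderation, replicate blocks, other windows and each sample left out. Added after the data were seen were limma-voom on recovered counts and other choices of start-site peak. Replicate numbers were not taken to pair samples. Sums per sample were compared by two-sided exact permutation, where p cannot be under 0.333.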

Additional observations from a re-analysis of the deposited data

How the results depend on the processing

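No member peak passed the threshold under equal total signal, quantile normalization, pseudocounts of 0.1 and 5, plain moderation, the filter on weak peaks or limma-voom on recovered counts, which was added after the data were seen. At a threshold of 0.05, 1 member peak was lower, and 904 peaks were lower and 412 higher over the whole data set. With values as deposited, 2 member peaks passed the threshold as lower, the members' median log2 fold change was -0.24, 72.6% of their peaks were lower, and 1333 peaks were lower and 52 higher over all peaks. That scaling moved the median of all peaks by a similar amount. With the replicate number as a block, 1 member peak was lower, and 907 peaks were lower and 362 higher; samples with the same number did not deviate together (correlation of deviations -0.0993), so the numbers were not taken to pair the samples.

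Over the whole data set, calls (lower, higher) were 7 and 15 with equal total signal, 11 and 13 with pseudocount 0.1, 7 and 8 with the filter, 95 and 49 with limma-voom, and 0 and 0 with plain moderation. With the filter, fewer peaks were tested. The cause of the other shifts was not tested. A sample left alone in its group is assumed to vary like the other group. Leaving out each sample in turn gave between 0 and 3 lower member peaks past the threshold, between 7 and 21 at an unadjusted p under 0.05, a median between -0.11 and 0.18 and a lower share between 27.4% and 59.8%. Over all peaks it gave between 0 and 6476 lower and between 0 and 3880 higher calls. The 12 named peaks kept their direction in all 149 values computed. They were chosen for having the same direction in all pairs of samples. Leaving out a sample or changing the pseudocount could therefore hardly reverse them. Plain moderation, the filter and the replicate block left the fold changes as they were. limma-voom used the same RLE factors, so it could hardly reverse them either. Only the other scalings could test the direction.

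Windows of 0 and 10 kb upstream gave 0 member peaks past the threshold. A start-site peak was found at 33 members when it had to overlap the start and at 40 within 2 kb. The planned edgeR test on recovered reads was not run: the deposited numbers, written with decimal commas, had been recorded as a score, and limma-voom was used on the recovered counts instead. With 4 samples, 0.333 is the floor of the exact permutation p, and depth limits peaks with few counts.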
